A study of Mus musculus with 2 samples.

Results

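Cytokine messages are short-lived, and a small set of RNA-binding proteins sets how long they last. Levels of 10 such genes were described in eosinophils sorted from the colon: the decay factors Zfp36, Zfp36l1, Zfp36l2, Zc3h12a and Rc3h1, the deadenylation genes Btg1, Tob1 and Cnot1, and the binding proteins Pabpc1 and Elavl1. They were chosen by gene symbol and known role, not by level, though with earlier results of these data known. They are 10 of the 23456 genes in the deposited table. Where a gene had several transcripts, the 1 with the highest read total stood for it.

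The series holds 1 group of 2 samples, both of colonic eosinophils from naive, wild-type C57BL6 mice, with no treated or mutant group. Colons were digested with enzymes, eosinophils were isolated by flow cytometry, and RNA was extracted with Trizol. Libraries were made with CEL-Seq, which reads a tag near the 3′ end of each transcript, with 3 technical libraries per sample. The labels used here name no sort gate and no age, sex or number of mice. The table gives 1 mean per transcript over the 6 libraries, so the values below are the authors' means, with no SD or n and no test between samples. Levels are in RPKM, in which reads are divided by transcript length in kilobases and by depth in units of 1000000 reads. Each interval is an exact 95% Poisson interval of the reads over the 6 libraries and covers counting error only, not the spread between mice or samples.

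The 6 libraries together placed 7692387 reads on genes, a mean of 1282064.5 per library. Of 8 eosinophil markers, 7 reached an RPKM of 1, led by Alox15 at 230 and Ccr3 at 155, but the eosinophil peroxidase gene Epx had only 0.265. The summed RPKM of the eosinophil markers was 695. It was 232 for 6 epithelial markers, led by Epcam and Krt19 at 89.3 and 66.7, and 137 for 6 fibroblast markers, led by Col3a1 and Col1a2 at 66.7 and 35.2. The 6 macrophage markers summed to 94.98, led by Csf1r and C1qb at 41.0 and 37.9, with Mertk at 0. Adgre1, which macrophages also express, held 109 of the eosinophil sum. The lists differ in size, so their sums are not on equal terms. The erythrocyte list summed to 942, of which Hbb-bs and Hba-a1 held 560 and 379; each overlaps a near-identical globin copy, so its own reads are uncertain. The other lists were lower, at 47.9 for B and plasma cells, led by Jchain and Mzb1 at 44.1 and 1.83 (99.8% of the 35-base words in the last 500 bases of Mzb1 also occur in another gene), 34.3 for neutrophils, led by S100a9 and S100a8 at 23.9 and 10.2, and 17.2 for endothelial cells, led by Pecam1 and Cdh5 at 16.3 and 0.535. T cell markers summed to 4.54, led by Cd4 and Cd3e at 1.56 and 1.44, and mast cell markers to 4.36, led by Mcpt1 and Mcpt2 at 2.47 and 1.14. The part of these other cells in the levels below was not tested. With 1 bulk mean, more cells of a type and more RNA per cell cannot be told apart.

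As background, Zfp36 (tristetraprolin) and its paralogs bind AU-rich elements in the 3′ untranslated region (UTR) through a pair of CCCH zinc fingers and bring in the CCR4-NOT deadenylase, which removes the poly(A) tail. Zc3h12a (Regnase-1) is an endonuclease that cuts stem-loops in cytokine messages, and Rc3h1 (Roquin-1) binds stem-loops and recruits the same deadenylase. Btg1 and Tob1 belong to a family that connects to the deadenylase, Cnot1 is its scaffold, Pabpc1 coats the poly(A) tail, and Elavl1 (HuR) binds AU-rich elements and often stabilises the message.

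The AU-rich element is the sequence on which several of these proteins meet, and some of their own messages carry it. The 9-base motif TTATTTATT, the classic full site for Zfp36, was searched on the sense strand of the 3′ UTRs of GENCODE M21 transcripts, counting overlapping matches. It was present in the 3′ UTR of 5 of the 10 regulators, against 6.74% of the 19688 genes with a 3′ UTR. These 5 were the 3 Zfp36 family genes, Rc3h1 and Elavl1. The sites are shown because they mark which regulators carry the element that the family itself binds. Each is given 5′ to 3′ as DNA in mm10, with the motif in capitals; Elavl1 held 8 overlapping or neighbouring matches, of which the first is shown.
Zfp36, chr7:28376951-28376979, minus strand: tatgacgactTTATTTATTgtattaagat
Zfp36l1, chr12:80108167-80108195, minus strand: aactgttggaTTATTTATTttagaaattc
Zfp36l2, chr17:84184914-84184942, minus strand: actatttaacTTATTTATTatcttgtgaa
Rc3h1, chr1:160970043-160970071, plus strand: actttactcaTTATTTATTgagatgagga
Elavl1, chr8:4285788-4285816, minus strand: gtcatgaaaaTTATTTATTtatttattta

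Zfp36 was by far the most abundant of the regulators. It had 46062 reads over the 6 libraries and an RPKM of 1471 (1458 to 1485), which placed it at rank 16 of all genes both by RPKM and by reads. This single gene held 0.599% of all reads on genes, and 88.7% of the summed RPKM of the 10 regulators. The gene (NM_011756) lies on chromosome 7 from 28376784 to 28379228 on the minus strand.

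Its paralogs stood far lower. Zfp36l1, which acts with Zfp36l2 in lymphocyte development in mice, had 748 reads and an RPKM of 14.5 (13.5 to 15.6), at rank 1578. Zfp36l2 had 112 reads, the fewest of any regulator, and an RPKM of 1.75 (1.44 to 2.10). Zfp36 was 102-fold above Zfp36l1 (94.5 to 109) and 841-fold above Zfp36l2 (699 to 1022) per length, and 61.6-fold and 411-fold above them in reads. Of the summed RPKM of the 3 genes, 98.9% was Zfp36, 0.973% Zfp36l1 and 0.118% Zfp36l2. Counted by reads without length, the share of Zfp36 was 98.2% (98.0 to 98.3, exact binomial interval). The fourth mouse gene of the family, Zfp36l3, known from placenta, was listed at 0. Zfp36l1 (NM_007564) lies on chromosome 12 from 80107760 to 80113013 and Zfp36l2 (NM_001001806) on chromosome 17 from 84183928 to 84187947, both on the minus strand.

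The stem-loop factors also stood far apart. The endonuclease gene Zc3h12a was the next regulator after Zfp36, with 6463 reads and an RPKM of 106 (103 to 108), at rank 281. Rc3h1 had 172 reads and an RPKM of 0.854 (0.731 to 0.992), the lowest value and the single one below 1. Zc3h12a was thus 124-fold above Rc3h1 per length (106 to 145) and 37.6-fold above it in reads. Zc3h12a (NM_153159) lies on chromosome 4 from 125118414 to 125127881 on the minus strand, and Rc3h1 (NM_001024952) on chromosome 1 from 160906411 to 160974976 on the plus strand. In the last 500 bases of Zc3h12a, 10.9% of 35-base words also occur in transcripts of other genes, so some of its reads could have several placements. What share of its reads this is was not measured.

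Among the paralogs of these factors, Rc3h2 (Roquin-2), which overlaps with Rc3h1 in function in mice, had 186 reads and an RPKM of 1.12 (0.963 to 1.29). The Rc3h1 to Rc3h2 ratio was 0.764 (0.617 to 0.945), so Rc3h1 was slightly lower per length. In reads the ratio was 0.925, for which no interval is given. The 186 reads of Rc3h2 lay within the counting interval of Rc3h1, 147 to 200 reads, so no difference was resolved in reads. The Regnase paralogs Zc3h12b, Zc3h12c and Zc3h12d had 1, 10 and 8 reads, and were named after their values were seen.

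**Figure D1:**
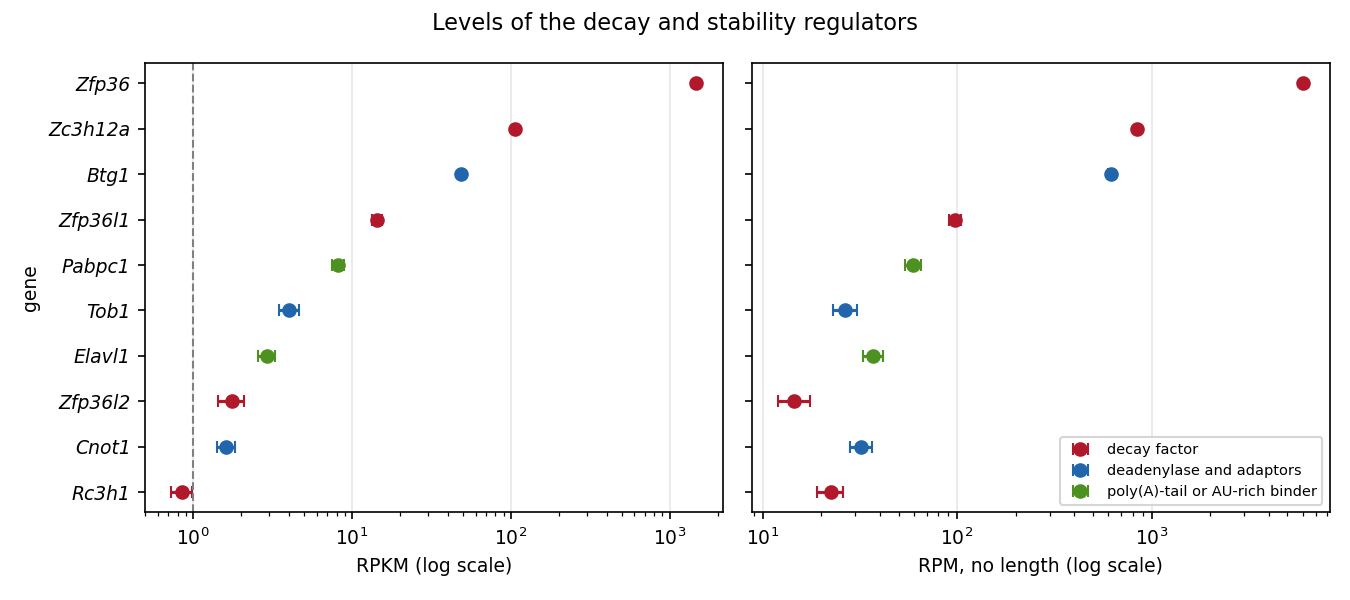
Level of each regulator in RPKM (left) and in reads per 1000000 reads on genes without length (right), both on log axes. Points are the authors' means over 6 libraries and bars are exact 95% Poisson intervals; the dashed line is an RPKM of 1. Zfp36 stands at 1471 and Rc3h1 at 0.854, with the order of the lower genes differing between the panels.

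The adaptors of deadenylation were led by Btg1, an antiproliferative gene that is high in resting lymphocytes. It had 4748 reads and an RPKM of 48.6 (47.2 to 50.0), at rank 603 by RPKM and 246 by reads. Tob1 had 204 reads and an RPKM of 4.03 (3.49 to 4.62), so Btg1 was 12.1-fold higher per length (10.5 to 13.9) and 23.3-fold in reads. In the same family, Btg2, a p53-responsive early gene, had 7755 reads and an RPKM of 139 (136 to 142), above both. Btg1 over Btg2 was 0.350 per length (0.337 to 0.363) and 0.612 in reads. Tob1 over Tob2, at 6.96 RPKM, was 0.579 per length (0.488 to 0.684) and 0.457 in reads. Btg3 and Btg4 were listed at 0. Btg3 overlaps Gm7334, also at 0, on the same strand, and another gene shares 5.15% of its searched words, so its 0 is uncertain. Btg1 (NM_007569) lies on chromosome 10 from 96617001 to 96622811 and Tob1 (NM_009427) on chromosome 11 from 94211454 to 94215492, both on the plus strand.

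Cnot1, the scaffold of CCR4-NOT, had 247 reads and an RPKM of 1.62 (1.42 to 1.83). It is the single regulator with several transcripts in the table: its 3 rows share the span on chromosome 8 from 95719451 to 95807462 (minus strand). All reads were in NM_153164 and the other two were listed at 0. Transcripts with a common 3′ end cannot be told apart by a 3′ tag, so nothing is said of its isoforms. The table also places 4930513N10Rik within it on the opposite strand, and the sources used here do not say whether counting used strand.

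The poly(A)-binding protein gene Pabpc1 had 456 reads and an RPKM of 8.17 (7.44 to 8.96), 5.06-fold above Cnot1 per length (4.32 to 5.93) and 1.85-fold in reads. The other cytoplasmic genes of the family, Pabpc1l, Pabpc2, Pabpc4, Pabpc5 and Pabpc6, named after their values were seen, had between 1 and 23 reads. For Pabpc4, 83.7% of the searched words also occur in transcripts of other genes, so its 2 reads are uncertain, while for Pabpc1 the share was 1.72%. Pabpc1 (NM_008774) lies on chromosome 15 from 36595658 to 36608973 on the minus strand.

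Elavl1, the stabilising factor, had 285 reads and an RPKM of 2.91 (2.58 to 3.27). Zfp36, which acts on AU-rich messages in the opposite direction, was 506-fold above it (450 to 571). Per read, without length, that ratio was 162. The neuronal paralogs Elavl2, Elavl3 and Elavl4, named after their values were seen, had 9, 53 and 2 reads. Elavl1 (NM_010485) lies on chromosome 8 from 4284782 to 4325100 on the minus strand. Its listed 3′ end lies 600 bases beyond that of the nearest GENCODE transcript.

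All 10 regulators had reads, as did 69.1% of all genes. Of these 10, 9 reached an RPKM of 1, as did 31.0% of all genes. An RPKM of 10 was reached by 4, beside 8.78% of all genes, and an RPKM of 100 by 2, beside 1.28%. The median was 6.10 for the regulators, 0.186 for all genes and 4.28 for genes at an RPKM of 1 or more. Between Zfp36 and Rc3h1 the distance was 1723-fold. The median of genes with any read, 0.750, lay within the counting interval of Rc3h1, 0.731 to 0.992 around 0.854. The 3 highest regulators held 98.0% of the summed RPKM of the 10 and the other 7 summed to 33.8.

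The order by RPKM was Zfp36, Zc3h12a, Btg1, Zfp36l1, Pabpc1, Tob1, Elavl1, Zfp36l2, Cnot1 and Rc3h1. All neighbours in this order had separate counting intervals except Zfp36l2 and Cnot1. RPKM divides by length, although CEL-Seq makes its tags at 1 end of a transcript whatever its length. The lengths implied by the read totals and RPKM ran from 1756 bases for Zfp36 to 8574 for Cnot1 and 11298 for Rc3h1. By reads, the first 5 genes kept their order and Elavl1, Cnot1, Tob1, Rc3h1 and Zfp36l2 followed, so Elavl1, Cnot1 and Rc3h1 moved up and Zfp36l2 became the lowest. In reads, the intervals of Elavl1 and Cnot1, of Cnot1 and Tob1, and of Tob1 and Rc3h1 overlapped.

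**Figure D2:**
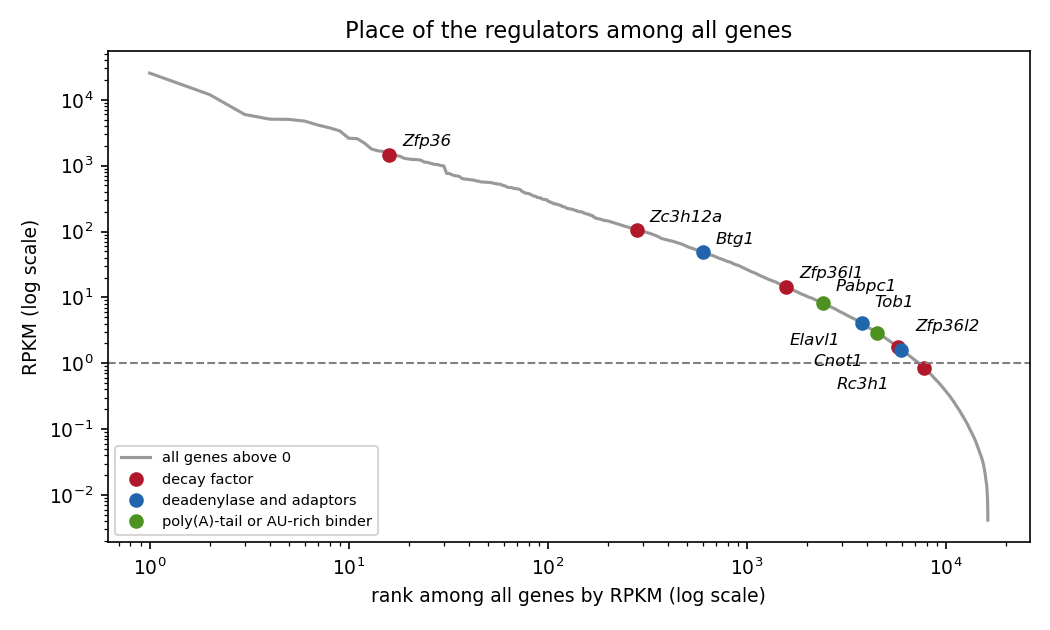
RPKM of each regulator against its rank among all genes, both on log axes, over the curve of all genes above 0. Zfp36 stands at rank 16, Zc3h12a at 281 and Btg1 at 603, while the other 7 lie from rank 1578 to rank 7717; the dashed line is an RPKM of 1.

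The machinery that the regulators recruit was present at moderate levels. Of 13 other deadenylase genes, 10 reached an RPKM of 1, beside 31.0% of all genes. Their median was 4.22, beside 0.186 for all genes. The catalytic subunit gene Cnot6l led at 25.4 (24.0 to 26.9), followed by Pan3 of the PAN2-PAN3 deadenylase at 16.1 and Cnot9 of CCR4-NOT at 9.02. Cnot9 overlaps Usp37, with 146 reads, on the opposite strand, so its own reads are less certain. Cnot6l was 15.7-fold above its scaffold Cnot1 per length (13.7 to 18.1) and 4.64-fold in reads, and 4.06-fold above its paralog Cnot6 (3.56 to 4.65). The alternative catalytic subunits Cnot7 and Cnot8 had 5.90 and 4.97. Their ratio per length was 1.19, with an interval (0.988 to 1.43) that includes 1. In reads, 279 and 202, the ratio was 1.38. The interval per length does not apply to this ratio and does not show that the reads are alike. Cnot6, Cnot7 and Cnot8 were named after their values were seen.

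Downstream decay was more uneven. Of 17 decapping and 5′ to 3′ decay genes, 9 were at or above an RPKM of 1, beside 31.0% of all genes. Their median was 1.22. The list was led by Lsm4 at 41.9, Lsm14a at 25.2 and Lsm3 at 11.2, and Lsm5 and Lsm7 were listed at 0. Other genes share 30.3% of the searched words of Lsm3, 45.9% of those of Lsm5 and 64.1% of those of Lsm7, so these are uncertain. The decapping enzyme Dcp2 had 1.22 and the exonuclease Xrn1 0.465, and both were named with their values known. Of 16 exosome and 3′ to 5′ decay genes, 8 were at or above an RPKM of 1, beside 31.0% of all genes. Their median was 1.00. Skiv2l, the helicase of the Ski complex that feeds the exosome, stood apart at 154 (151 to 157), ahead of Exosc7 at 19.98 and Exosc8 at 3.12. The genes of its partners in that complex, Ttc37 and Wdr61, had only 0.606 and 1.11, from 52 and 17 reads. Both were named with their values known. Exosc9 was listed at 0. It overlaps Ccna2, with 45 reads, on the opposite strand, and whether counting used strand is not known, so this 0 is uncertain.

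All 9 other AU-rich element binding genes were at or above an RPKM of 1 (median 5.94), beside 31.0% of all genes. Hnrnpdl led at 42.5 (40.6 to 44.4), which was 14.6-fold above Elavl1 per length (12.9 to 16.6) and 6.82-fold in reads, followed by Hnrnpab at 21.2 and the decay-promoting factor Khsrp at 9.30. Hnrnpab overlaps Phykpl, with 20 reads, on the opposite strand. Other genes share 10.5% of the searched words of Hnrnpab, so its own reads are less certain. Of 9 genes for partners of the poly(A)-binding protein, 6 were at or above an RPKM of 1 (median 1.47), beside the same 31.0%. These were led by Paip2, an inhibitor of the poly(A)-binding protein, at 13.4, with the scaffolds Eif4g3 and Eif4g1 at 3.57 and 1.98. Of the 17 paralogs of the regulators, 3 (Btg2, Tob2 and Rc3h2) were at or above an RPKM of 1, a share of 17.6%, beside 31.0% of all genes.

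All 7 genes listed for kinase and phosphatase control of Zfp36 family proteins passed an RPKM of 1, beside 31.0% of all genes. Their median was 58.7. The p38 pathway phosphorylates Zfp36 and blocks its decay function, the phosphatase PP2A reverses this, and Dusp1 switches p38 off. Dusp1 had an RPKM of 682 (673 to 691), the PP2A catalytic gene Ppp2ca 113 and the kinase gene Akt1 77.4. The p38 gene Mapk14 and its effector kinase genes Mapkapk2 and Mapkapk3, named after their values were seen, had 7.73, 58.7 and 18.5. Zfp36 RNA was 2.16-fold above Dusp1 (2.12 to 2.19). Zfp36, Dusp1 and Btg2 are also early response genes. Colons were digested before sorting, and with no undigested sample in the series the part of digestion in these levels was not tested.

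**Figure D3:**
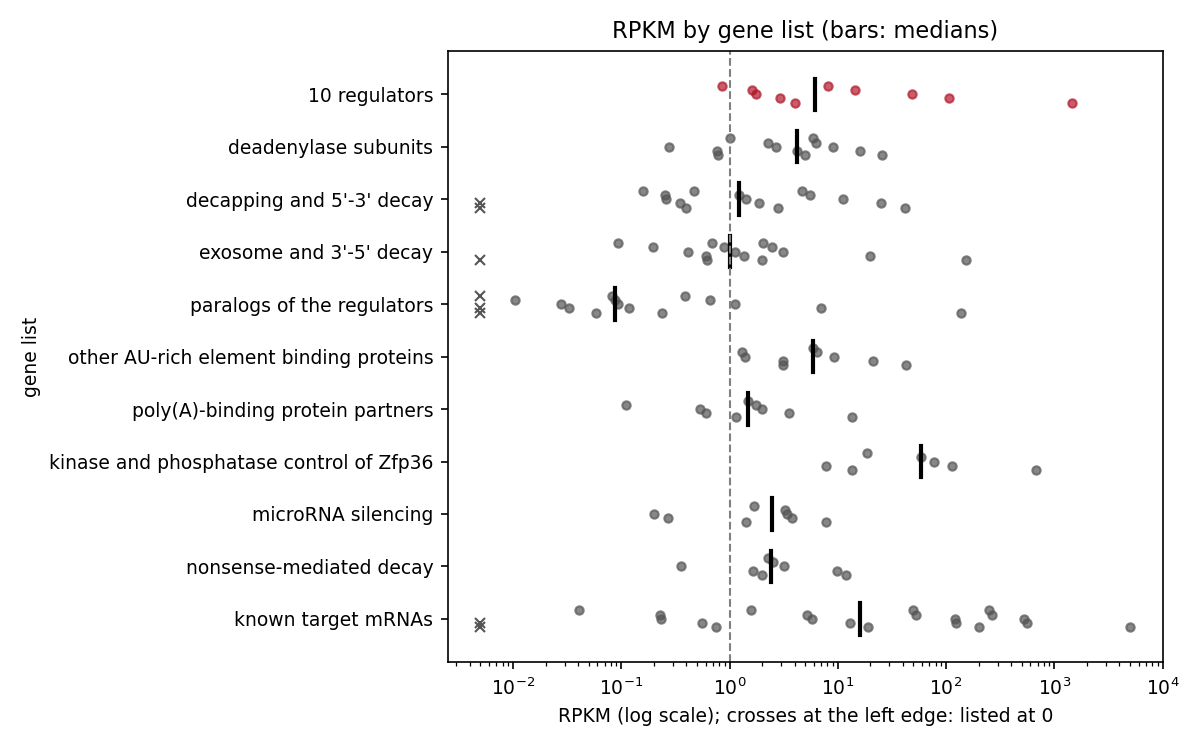
RPKM of the 10 regulators (red) and of each list of related genes (grey), 1 point per gene on a log axis, with black bars at the medians, a dashed line at an RPKM of 1 and crosses for genes listed at 0. The highest median is that of the genes listed for control of Zfp36 family proteins, at 58.7, and the lowest that of the paralogs, at 0.0869.

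Messages that these factors are known to act on were present over a wide range. Of 22 such genes, 15 reached an RPKM of 1, beside 31.0% of all genes. Their median was 16.0, beside 0.186 for all genes. The chemokine genes Cxcl2 and Ccl3 had 5035 and 555, and Nfkbid, an inhibitor of the NF-kB family and a target of Regnase-1 and Roquin in mice, had 524. Zfp36 over Cxcl2 was 0.292 per length (0.289 to 0.296) and 0.521 in reads. Tnf, the best studied Zfp36 target, had 164 reads and an RPKM of 5.20 (4.44 to 6.06), and Il1b had 263, both named after their values were seen. Csf2 and Il12b were listed at 0. For a count of 0, a fixed upper limit of 3 reads over the 6 libraries was used in place of the exact interval. That limit is 0.390 per 1000000 reads on genes.

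The target messages were searched for the same motifs. The 9-base motif was in 9 of 22 target 3′ UTRs (40.9%) and 5 of 10 regulator 3′ UTRs (50.0%), but the shorter TATTTAT, contained in it, was in 17 of 22 (77.3%) and 5 of 10 (50.0%), against 25.4% of all genes with a 3′ UTR. The 5-base core ATTTA, contained in both, had a median of 7.75 per 1000 bases in the targets and 3.69 in the regulators, against 1.11 in all genes. Several of the factors bind AU-rich elements, so choosing their known targets in part builds these motifs into the list. The targets were not set beside genes of like 3′ UTR length. Sites of the highest and the next highest target and of Tnf, the first of each where there are several, are shown for comparison with those of the regulators above; the capitals mark the 9-base motif, or TATTTAT in Ccl3, which lacks the longer one.
Cxcl2, chr5:90905316-90905344, plus strand: gagagttcacTTATTTATTtatctatgta
Ccl3, chr11:83648003-83648031, minus strand: gtatttgtgacTATTTATtctgaaagact
Tnf, chr17:35199689-35199717, minus strand: tttgcacttaTTATTTATTatttatttat
Tnf held 5 copies of the 9-base motif and Cxcl2 held 4, beside 8 in Elavl1 and 1 each in the Zfp36 family genes and Rc3h1.

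Long 3′ UTRs hold more motifs, so each regulator was set beside genes with a 3′ UTR within 20% of its length. For each of the 5 genes with the 9-base motif, the share of genes of like length with at least as many copies of ATTTA and the number with the 9-base motif are given. The 3′ UTR of Zfp36 had 774 bases and 3 copies of ATTTA, all within TATTTAT; 19.6% of 2243 genes of like length had as many, and 94 held the 9-base motif. Zfp36l1 had 1835 bases and 9 copies, beside 5.55% of 2487 genes with as many, and of all genes in that band 249 held the 9-base motif. Zfp36l2 had 1822 bases and 5 copies, beside 29.2% of 2493 genes with as many, and of all genes in that band 250 held the motif. Of these 5, Elavl1 and Rc3h1 had the longest 3′ UTRs, and there the motif was more common in genes of like length. The searched 3′ UTR of Elavl1 had 4218 bases, 17 copies of ATTTA and 8 of the 9-base motif. As many copies of ATTTA were in 4.05% of 1087 genes, and of all genes in that band 191 held the 9-base motif. The transcript listed for Elavl1 extends 600 bases further at its 3′ end, and these bases were not searched. Rc3h1 had 7181 bases and 20 copies, beside 20.5% of 273 genes with as many, and of all genes in that band 82 held the motif. Zc3h12a, Btg1, Tob1, Cnot1 and Pabpc1 held ATTTA, with between 1 and 11 copies, and neither longer motif. In that order, 21.7%, 25.3%, 19.6%, 72.3% and 8.86% of genes of like length had at least as many copies of ATTTA. The 9-base motif was thus in the highest regulator, Zfp36, and in the lowest, Rc3h1. A match is a stretch of letters in the reference and not a measured binding site.

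**Figure D4:**
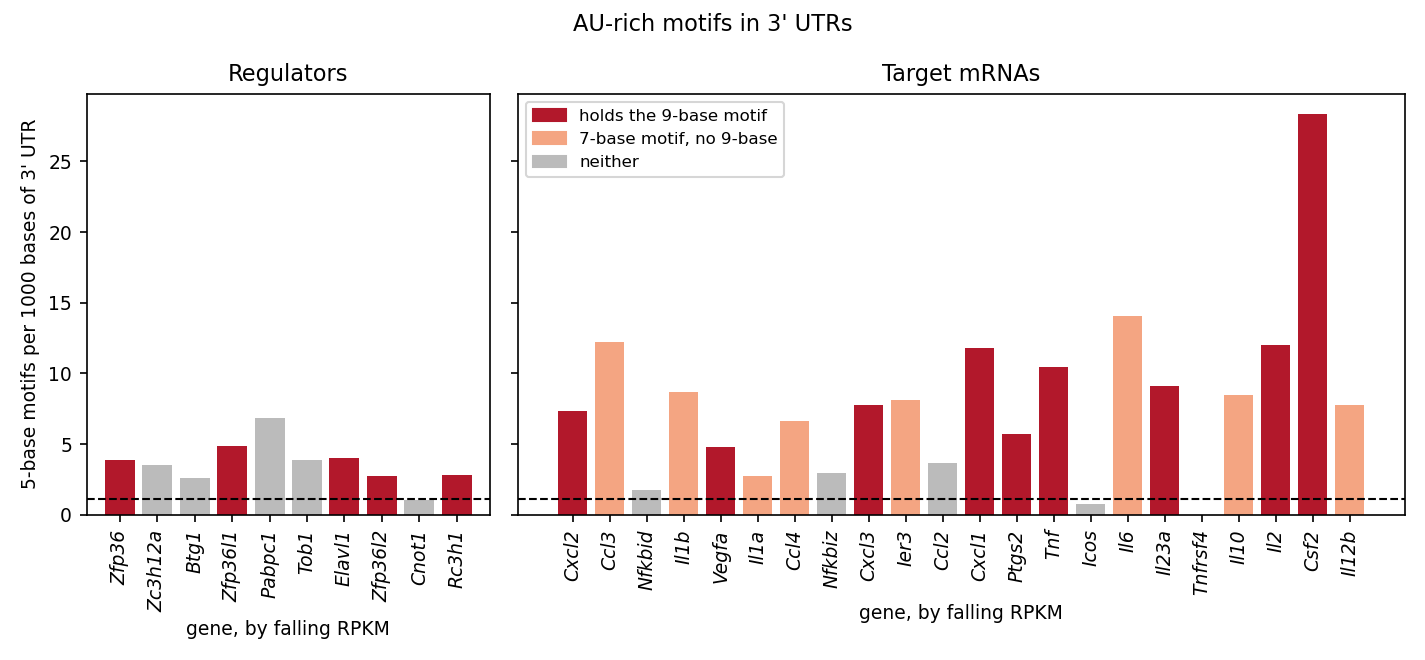
Copies of ATTTA per 1000 bases of 3′ UTR in the regulators (left) and the target messages (right), each ordered by falling RPKM, with the dashed line at the median of all genes with a 3′ UTR, 1.11. Dark red bars hold the 9-base motif, light bars only TATTTAT and grey bars neither; Csf2, listed at 0, has the highest density.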

How the data were processed

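Per the submitters' processing notes, STAR 2.4.2a and DESeq were used on mm10; these notes name no counter, strand setting, annotation release or rule for reads with several placements. The deposited file lists 31295 RefSeq transcripts, each with a read total and an RPKM computed by the authors. All read totals times 6 were whole within 0.001, so they are means over 6 libraries. The table held 0 columns of other samples. Depth limits the precision as the counting intervals show; the labels name no molecular identifiers.

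Rows were joined to genes by RefSeq accession (30730), symbol (402) or synonym (85), and 78 kept their own symbol; the row with the most reads was kept. RPM is reads per 1000000 reads on genes. Implied lengths used a depth of 2971283 reads, the median over 925 rows of 100 or more reads whose ends match 1 GENCODE M21 transcript; the 5th and 95th percentiles were 84.1% and 121% of it. Motifs were counted in the protein-coding GENCODE transcript whose 3′ end lies nearest the row's, with ties going to the longest. The length behind the RPKM was not used in this choice. The searched 3′ UTR, also that of Cxcl2, can therefore differ from that of the counted transcript. All 126 genes of the 10 lists and 57 of 58 marker genes were found.

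The members and lists were chosen with earlier results of these data known. The named genes are all 10 regulators, the 3 highest of each list with up to 3 listed at 0, and the 2 highest markers of each cell type; 1 gene that this rule names is not reported here. Epx and Mertk and the other genes outside the rule were named with their values known. No comparison between groups or samples was possible. Alternatives were other RPKM levels, RPM, rescaled RPKM, other row choices and other backgrounds. Computation used scipy 1.17.1, pandas 2.3.3, numpy 2.4.6 and Python 3.11.15, figures matplotlib 3.10.9, and counting intervals, motif counts and implied lengths, but not the search for shared words, were tested on simulated data.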

Additional observations from a re-analysis of the deposited data

How the results depend on the processing

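An RPKM of 1 was reached by 9 regulators and by 80 of the 126 genes in the related lists, beside 31.0% of all genes. At an RPKM of 5 these counts were 5 and 43, beside 14.2% of all genes. At an RPKM of 10 they were 4 and 30, beside 8.78%. At any RPKM above 0, at an RPM of 1 and on RPKM rescaled to a sum of 1000000, all 10 regulators and 118, 108 and 102 list genes were counted, beside 69.1%, 50.9% and 47.5% of all genes. The median of the regulators, 6.10, was 48.2 by RPM and 25.7 on rescaled RPKM, both by the change of scale. The share of Zfp36 in its family, 98.9%, was 98.2% by RPM. Other row choices could not move a regulator, since 9 have 1 row and the other rows of Cnot1 are at 0. With the row of highest RPKM 80 list genes were counted, beside 31.1% of all genes. With summed rows 81 were counted, beside 32.0%. Zfp36, Zc3h12a and Btg1 were in the top 5% of genes by RPKM, and 3 regulators were there in every alternative run: by RPM, with either row choice, without ribosomal protein genes and without noncoding rows. No paired analysis was possible because the table gives 1 mean for the group, and for the same reason no replicate could be left out.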

Other observations

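Other routes of cytoplasmic mRNA silencing that meet the same deadenylase were present at modest levels. Of 8 microRNA silencing genes, 6 were at or above an RPKM of 1 (median 2.48), beside 31.0% of all genes. Tnrc6a, whose protein joins Argonaute to CCR4-NOT, led at 7.70 (7.26 to 8.16), and the Argonaute genes Ago1 and Ago4 had 3.76 and 3.40. Ago2, the Argonaute that can cut its target, had 31 reads and an RPKM of 0.202 (0.137 to 0.287), a gene chosen with its value known. Of 8 nonsense-mediated decay genes, 7 were at or above an RPKM of 1 (median 2.39), beside the same 31.0%. The kinase gene Smg1 had the highest level of the list, at 12.0, and Smg6 had 3.20. The helicase gene Upf1, which works with Regnase-1 on stem-loop messages in mice, was below 1, at 0.359 from 31 reads, and was also chosen with its value known.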
